A study of Mus musculus with 14 samples.

Results

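The sarcomeric myosin heavy chain genes *Myh1*, *Myh2*, *Myh3*, *Myh4*, *Myh7* and *Myh8* were chosen by name, 6 of the 55487 genes in a table of RNA-seq counts from mouse caudal intervertebral discs (IVDs), and all 6 were among the 16915 genes with enough counts to test. The study set 2 models of type 2 diabetes beside their controls, and RNA came from 5 tail discs pooled per mouse, from male mice throughout, with 1 library per mouse. The db/db group (n = 3) is homozygous for a germline *Lepr* mutation that leaves the mice deficient in the leptin receptor, and the db/+ littermates (n = 3), the controls, carry 1 copy of it. The db mice were taken at 12 weeks of age. The STZ-HFD group (n = 4, C57BL/6J) ate a high-fat diet for 4 to 6 weeks, received a single dose of the beta-cell toxin streptozotocin at 100 mg/kg, and stayed on the diet for another 12 weeks. Con+Veh mice (n = 4, C57BL/6J) had standard chow, the citrate vehicle and the same 12 weeks after injection. Both of these groups entered the study at 12 weeks of age and so were older at harvest than the db mice. The strain of the db mice is not given in the sources used here, and the 2 cohorts differ in age, so cohort, age and model cannot be told apart where the 2 models are compared.

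Myosin heavy chain is the motor of the thick filament, and each skeletal muscle fiber is classed by the form it makes. In adult mouse muscle, *Myh7* marks slow oxidative fibers, and *Myh2* (IIa), *Myh1* (IIx) and *Myh4* (IIb) mark progressively faster and more glycolytic ones, while *Myh3* (embryonic) and *Myh8* (perinatal) belong to developing and regenerating fibers. The disc is a cartilage-like tissue without striated muscle of its own, and in the tail it lies among muscles and their tendons.

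*Myh3*, *Myh2*, *Myh1*, *Myh4* and *Myh8* follow each other in that order on the plus strand of chromosome 11 in GRCm38, from 67078300, the start of *Myh3*, to 67308634, the end of *Myh8*. *Myh7* lies alone on the minus strand of chromosome 14, from 54970684 to 54994626. Upstream sequences of the chromosome 11 genes are shown because 4 of them share a run of bases there. In the 250 bases before the RefSeq transcription starts (GRCm38.p6), a block of 14 bases occurs in *Myh2*, *Myh1*, *Myh4* and *Myh8* and in no other promoter window of that length, 4 of 32851 (0.0122%). The block is in capitals below, with 60 bases before it and 40 after, all on the plus strand of chromosome 11.
Myh2, chr11:67170842-67170955: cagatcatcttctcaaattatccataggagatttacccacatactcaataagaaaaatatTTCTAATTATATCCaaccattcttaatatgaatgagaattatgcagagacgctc
Myh1, chr11:67199882-67199995: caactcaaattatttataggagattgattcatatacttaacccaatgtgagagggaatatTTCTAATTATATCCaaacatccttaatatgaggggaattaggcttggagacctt
Myh4, chr11:67237594-67237707: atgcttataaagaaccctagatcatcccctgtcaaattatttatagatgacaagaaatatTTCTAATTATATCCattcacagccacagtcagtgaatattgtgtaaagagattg
Myh8, chr11:67277010-67277123: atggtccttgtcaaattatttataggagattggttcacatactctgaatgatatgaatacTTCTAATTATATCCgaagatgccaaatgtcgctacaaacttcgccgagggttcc
The first base of the block lies 125 bases before the start in *Myh2*, 160 in *Myh1*, 158 in *Myh4* and 54 in *Myh8*. A longer run of 20 bases around it, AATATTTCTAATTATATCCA, is common to *Myh2*, *Myh1* and *Myh4*. The pattern bound by MEF2, a family of muscle transcription factors, matched once in *Myh1*, *Myh4* and *Myh8*, each time as TTATTTATAG, at 41, 14 and 35 bases before the block, and 2.92% of all promoter windows hold a match. *Myh3* and *Myh7* hold neither the block nor a MEF2 match. *Myh2* holds the block without a MEF2 match. These are matches of letters in a window, not measured sites, and the RefSeq start lies 50 bases from that of GENCODE in *Myh1* and 217 in *Myh4*.

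Counts of *Myh1* made up most of the family in every library, so the heavy chain RNA in these disc samples was mainly of the fast IIx type, with IIa next. Levels are given as CPM, counts scaled to a common library size with TMM factors, and they compare libraries, not genes. In the 3 db/+ libraries *Myh1* was at 2162, 2184 and 1309 CPM, and in the 3 db/db libraries at 818, 595 and 439 CPM. Con+Veh libraries had 3252, 2238, 2008 and 2214 CPM, and STZ-HFD libraries 1844, 5504, 5157 and 4833 CPM. All db/db libraries were thus below all db/+ libraries, and 3 of 4 STZ-HFD libraries lay above every Con+Veh library while replicate 1 lay below them all.

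*Myh2*, the IIa heavy chain, was at 994, 514 and 241 CPM in db/+ and at 429, 222 and 176 CPM in db/db. It reached 854, 629, 383 and 519 CPM in Con+Veh and 593, 1830, 1741 and 1475 CPM in STZ-HFD. The db groups overlapped through db/+ replicate 3, and the STZ-HFD groups overlapped only through STZ-HFD replicate 1.

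*Myh4*, the IIb heavy chain that dominates many fast limb muscles of the mouse, was below *Myh1* in CPM per kb in every library. It was at 16.2, 62.2 and 21.7 CPM in db/+ and at 12.3, 9.34 and 8.13 CPM in db/db. Con+Veh libraries had 72.6, 58.1, 174 and 161 CPM, and STZ-HFD libraries 152, 1127, 449 and 165 CPM. The db/db libraries were all below the db/+ libraries, and the STZ-HFD libraries spread widely, with replicate 2 far above the rest.

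*Myh7*, the slow heavy chain that is also the main one of the ventricle, was at 179, 156 and 84.9 CPM in db/+ and 146, 90.1 and 68.7 CPM in db/db. It was at 274, 214, 112 and 242 CPM in Con+Veh and 450, 643, 617 and 412 CPM in STZ-HFD. Here every STZ-HFD library, replicate 1 included, exceeded every Con+Veh library. Of 6 heart muscle markers 2 were tested (*Ryr2* and *Myh6*) and 0 were called, and the 6 summed to between 6.45 and 13.3 CPM in db/+, 9.62 to 13.1 in db/db, 8.74 to 24.3 in Con+Veh and 17.6 to 39.0 in STZ-HFD. The natriuretic peptide genes *Nppa* and *Nppb*, which heart muscle makes, were at group means of at most 0.0571 and 0.0522 CPM.

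Counts of the developmental members were low but present in every library. *Myh3* ranged from 12.4 to 35.0 CPM in db/+, from 18.0 to 37.1 in db/db, from 32.8 to 53.3 in Con+Veh and from 57.4 to 74.5 in STZ-HFD. *Myh8* ranged from 14.6 to 40.1 CPM in db/+, from 9.55 to 26.0 in db/db, from 21.8 to 39.9 in Con+Veh and from 29.3 to 67.7 in STZ-HFD. For *Myh3* only the STZ-HFD and Con+Veh ranges were apart, and for *Myh8* the groups of both models overlapped.

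**Figure D1:**
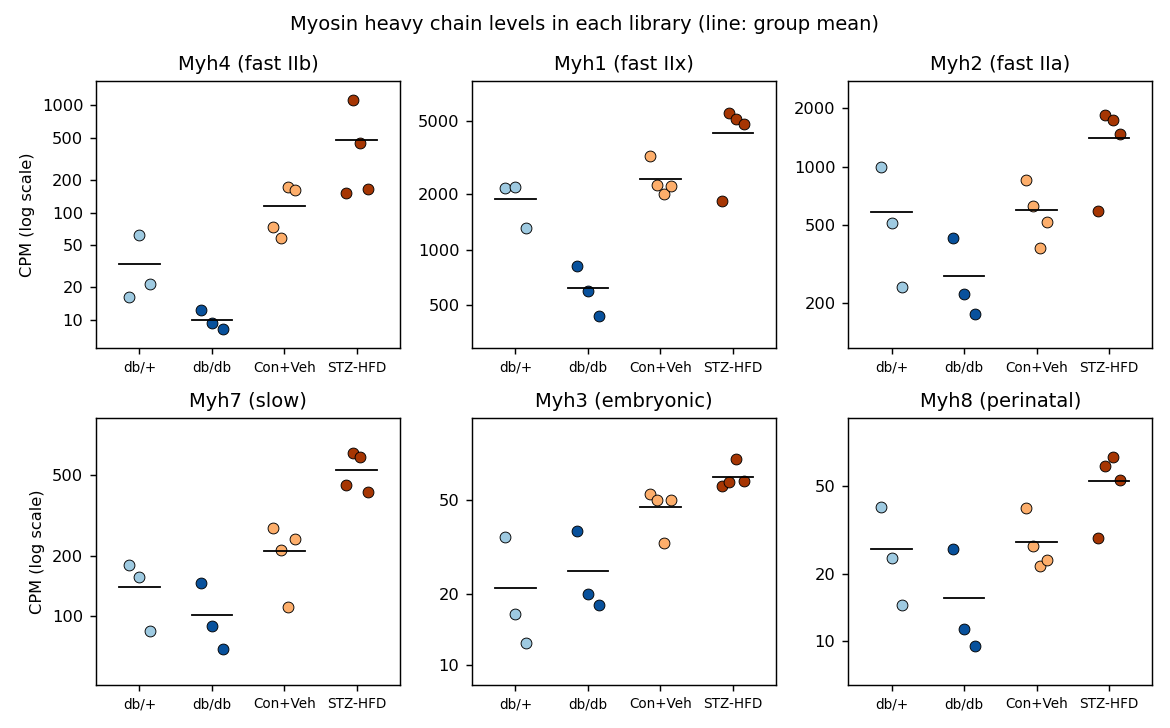
Level of each member in each of the 14 libraries, in TMM-scaled CPM on a log axis that differs between panels. Points are libraries (mice) in the 4 groups and lines are group means. *Myh1* has db/db libraries at 439 to 818 CPM, all below the db/+ libraries, and *Myh7* has STZ-HFD libraries at 412 to 643 CPM, all above the Con+Veh libraries.

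To compare levels between the genes, CPM was divided by the exonic length in kilobases, which ran from 6.016 for *Myh4* to 11.772 for *Myh8*. *Myh1* stood at 297 CPM per kb in db/+, 97.2 in db/db, 382 in Con+Veh and 682 in STZ-HFD, and *Myh2* at 81.7, 38.6, 83.6 and 198. *Myh1* was ahead of *Myh2* in every library, and their ranges did not overlap within any group. *Myh7* followed them in db/+, db/db and Con+Veh, at 16.3, 11.8 and 24.4 CPM per kb. Its range overlapped that of *Myh4* in db/+, where it was ahead in every library, and in Con+Veh, where it was ahead in 3 of 4. In STZ-HFD, *Myh4* at 78.6 and *Myh7* at 61.6 CPM per kb overlapped and were each ahead in 2 of 4 libraries, and by the longest coding transcript *Myh7* was ahead, at 85.2 against 78.6 and in 3 of 4 libraries. *Myh3* lay ahead of *Myh8* in all groups by exonic length, with means from 3.51 to 10.4 CPM per kb, while means of *Myh8* began at 1.33 in db/db, but by the length of the longest coding transcript *Myh8* (6149 bases) was ahead of *Myh3* in db/+. *Myh1* and then *Myh2* led in all groups by either length.

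The summed family was lower in db/db than in db/+, and higher in 3 of 4 STZ-HFD libraries than in Con+Veh. The summed CPM of the 6 genes was 3427, 2957 and 1683 in db/+, against 1469, 948 and 719 in db/db. It was 4547, 3217, 2731 and 3209 in Con+Veh, against 3125, 9225, 8107 and 6997 in STZ-HFD. STZ-HFD replicate 1 had a TMM factor of 1.52, where the other 3 STZ-HFD libraries had 0.696 to 0.745, and as a plain percent of all counts its family sum, 0.475%, was above the Con+Veh range of 0.209 to 0.364% along with the others at 0.521 to 0.688%. The RNA was bulk RNA, so fewer muscle fibers in a sample and less myosin RNA per fiber cannot be told apart.

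Skeletal muscle markers other than the members had medians of the same sign, a log2 fold change of -0.58 in db/db and 0.95 in STZ-HFD. Over 15 such genes, including *Acta1* (skeletal actin) and *Ttn* (titin), the summed level was 19536 to 22782 CPM in db/+, 8670 to 17682 in db/db, 17355 to 45531 in Con+Veh and 20722 to 58848 in STZ-HFD, and none of the 15 was at 0 in a group. In db/db 1 of the 15 fell, *Tcap* (a cap protein of titin, log2 fold change -1.39, limma adjusted p = 0.0395), and in STZ-HFD 5 rose by limma, namely *Smpx*, *Acta1*, *Ttn*, *Tcap* and *Ryr1*, by 1.27 to 1.88. DESeq2 called *Tcap* alone in each model, and edgeR called 0 of these 15, with 3 lower in db/db and 2 higher in STZ-HFD at an unadjusted p under 0.05. The disc markers *Acan*, *Col2a1* and *Sox9* were also present, and the summed level of 10 disc cartilage and nucleus pulposus genes was 12742 to 24061 CPM in db/+, 5809 to 13691 in db/db, 4488 to 6660 in Con+Veh and 4059 to 8744 in STZ-HFD. In db/db the 10 had a median log2 fold change of -0.72, with 2 positive and 8 negative, and limma, edgeR and DESeq2 called 0. At an unadjusted p under 0.05, 2 were lower there by limma, 3 by edgeR and 4 by DESeq2. The 10 had a median log2 fold change of -0.33 in STZ-HFD, with 4 positive and 6 negative, and 3 of them, *Acan*, *Col2a1* and *Sox9*, were called lower by limma and DESeq2, at -1.59, -1.84 and -1.53, while edgeR called 0, with 3 lower at an unadjusted p under 0.05. Of 6 adipocyte genes 4 rose in db/db by limma and DESeq2, *Retn*, *Plin1*, *Adipoq* and *Fabp4* (0 by edgeR, with 6 higher at an unadjusted p under 0.05), with sums of 90.4 to 135 CPM in db/+ and 265 to 461 in db/db. In STZ-HFD 6 of 6 were positive, with a median of 0.64 and sums of 327 to 552 CPM against 194 to 391 in Con+Veh. There limma and edgeR called 0, each with 3 higher at an unadjusted p under 0.05, and DESeq2 called *Lipe*. The difference between the models was called for 0 of the adipocyte genes and 0 of the disc genes by limma, edgeR or DESeq2. Of the 15 muscle markers, limma called this difference for 6, all with the higher response in STZ-HFD. DESeq2 called it for *Tcap* alone, and edgeR for 0, with 6 higher at an unadjusted p under 0.05. The 6 annulus and tendon genes summed to 10200 to 19658 CPM over the db libraries and to 821 to 3034 CPM over the Con+Veh and STZ-HFD libraries, so the cohorts also differed in this tissue signal. The part of these other tissues in the results was not tested, and for muscle a fit with a marker score is given beside each comparison.

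In db/db discs, *Myh1* was the member that fell. Its log2 fold change was -1.66 ± 0.31 (SE, n = 3 against 3), which is 3.16-fold lower, with an adjusted p of 0.0208 from limma with Benjamini-Hochberg adjustment over all genes tested. Calls here needed an adjusted p below 0.05 together with a change of 1 or more on the log2 scale, up or down. So 1 of 6 members was called lower, against a background of 0.432% of all genes tested.

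The other members of the family did not pass in db/db. *Myh4* had a log2 fold change of -1.59 ± 0.55 (adjusted p = 0.119 by limma), *Myh2* of -1.03 ± 0.44 (0.187), *Myh8* of -0.81 ± 0.36 (0.215) and *Myh7* of -0.51 ± 0.39 (0.461). *Myh3* pointed the other way at 0.29 ± 0.34 (0.666). *Myh1* and *Myh4*, 2 of 6, had all db/db libraries below all db/+ libraries, as had 11.7% of all genes tested.

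The call on *Myh1* was lost with edgeR's quasi-likelihood test (adjusted p = 0.230) and with voom without library quality weights (0.147), and also without db/+ replicate 1 (0.0627), db/+ replicate 2 (0.0881), db/db replicate 2 (0.0581) or db/db replicate 3 (0.0698). Its log2 fold change stayed between -1.88 and -1.24 over the 26 alternatives. With the mean log2 CPM of the 15 muscle markers as a covariate in limma, *Myh1* was still called at -1.24 ± 0.25 (adjusted p = 0.0361), while *Myh2* and *Myh7* were at -0.39 ± 0.34 and -0.036 ± 0.33.

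In STZ-HFD discs, 4 of 6 members rose, where 1.3% of all genes tested did. By name they span slow, fast and perinatal forms, though *Myh8* shares sequence with the far more abundant *Myh2*. *Myh7* rose by 1.72 ± 0.34 on the log2 scale (3.29-fold, limma adjusted p = 0.0134, n = 4 against 4) and *Myh2* by 1.71 ± 0.38 (3.27-fold, 0.0216). *Myh8* rose by 1.26 ± 0.32 (2.40-fold, 0.0380) and *Myh1* by 1.11 ± 0.28 (2.16-fold, 0.0361).

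The remaining STZ-HFD members gave 1.13 ± 0.49 for *Myh4* (adjusted p = 0.229) and 0.70 ± 0.29 for *Myh3* (0.213). *Myh7* and *Myh3*, 2 of 6, had all STZ-HFD libraries above all Con+Veh libraries, as had 1.97% of all genes tested. The limma fit gives libraries unequal weight, from 0.275 for Con+Veh replicate 1 to 3.05 for Con+Veh replicate 3. STZ-HFD replicate 1 had a weight of 0.379, against 0.688, 1.52 and 1.53 for replicates 2, 3 and 4. For *Myh1*, *Myh2* and *Myh8*, Con+Veh replicate 1 was the highest Con+Veh library and STZ-HFD replicate 1 the lowest STZ-HFD library.

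These 4 calls depended on the setting. edgeR's quasi-likelihood test called 0 of 6 members, with 5 at an unadjusted p under 0.05 and adjusted p from 0.148 for *Myh7* to 0.594 for *Myh3*, and DESeq2 called *Myh7* alone (log2 fold change 1.34, adjusted p = 0.00559). voom without quality weights called 0, with 4 at an unadjusted p under 0.05. The 4 calls held without STZ-HFD replicate 1. Leaving out Con+Veh replicate 3 or STZ-HFD replicate 3 left 0 called, leaving out Con+Veh replicate 4 or STZ-HFD replicate 4 left 1 (*Myh7*), and leaving out STZ-HFD replicate 2 left 2 (*Myh2* and *Myh7*). Over the 14 limma fits without 1 library, log2 fold changes were 0.98 to 1.25 for *Myh1*, 1.38 to 1.86 for *Myh2* and 1.09 to 1.38 for *Myh8*. In the same 14 fits that of *Myh7* was 1.11 without Con+Veh replicate 3 and otherwise 1.60 to 1.93. With the muscle score as a covariate limma called 0, with 1 at an unadjusted p under 0.05, and the log2 fold changes were 0.22 ± 0.27 for *Myh1*, 0.40 ± 0.36 for *Myh2*, 0.24 ± 0.34 for *Myh8* and 0.81 ± 0.35 for *Myh7*.

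**Figure D2:**
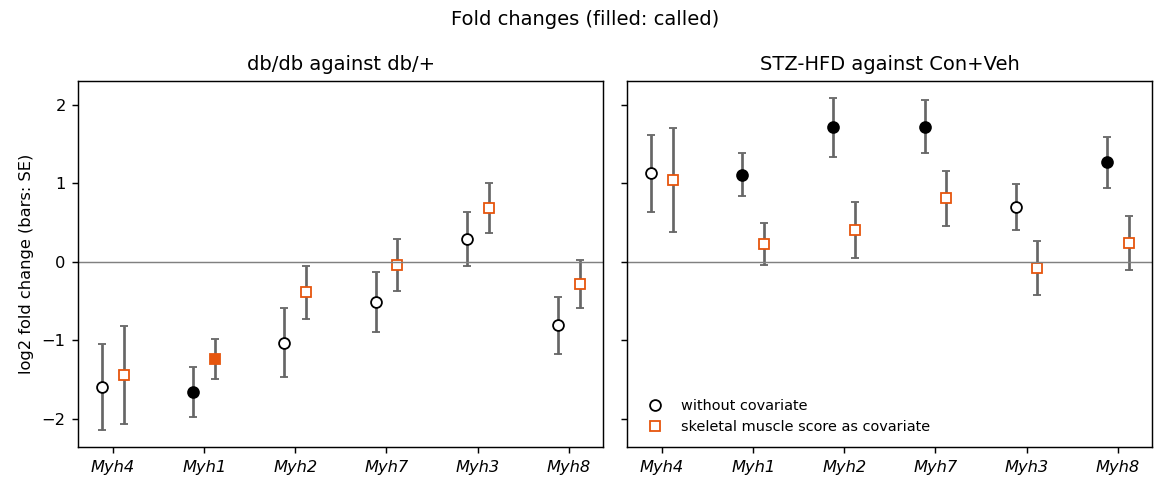
Log2 fold change of each member (y axis) in both models, with bars for the standard error, from limma without a covariate (circles) and with the skeletal muscle marker score as a covariate (squares). Filled symbols are called. In db/db *Myh1* is called in both fits, at -1.66 and -1.24, and in STZ-HFD the 4 calls without the covariate are lost with it.

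The responses of the models differed for 4 of 6 members, where 0.952% of all genes tested had a higher response in STZ-HFD than in db/db. The difference of the log2 fold changes was 2.77 ± 0.42 for *Myh1* (limma adjusted p = 0.0120), 2.74 ± 0.58 for *Myh2* (0.0297), 2.23 ± 0.51 for *Myh7* (0.0382) and 2.07 ± 0.48 for *Myh8* (0.0396). *Myh4* had 2.72 ± 0.74 (0.0650) and *Myh3* 0.41 ± 0.45 (0.702). By limma *Myh1* was the member called in opposite directions in the models, and edgeR and DESeq2 did not make its STZ-HFD call. With the muscle score as a covariate limma called 0 of these differences, with 2 at an unadjusted p under 0.05, and that of *Myh1* was 1.46 ± 0.40 (adjusted p = 0.135). *Myh1* kept the call in 13 of 14 fits without 1 library and lost it without Con+Veh replicate 3 (adjusted p = 0.0686), which left 0 called. Without db/+ replicate 1 or 2, db/db replicate 2 or 3 or STZ-HFD replicate 3 *Myh1* alone was called. Without Con+Veh replicate 4 or STZ-HFD replicate 2 there were 2 calls, and edgeR's quasi-likelihood test made 0, with 5 at an unadjusted p under 0.05. DESeq2 made 4, *Myh1*, *Myh2*, *Myh4* and *Myh7*, so it called *Myh4* and not *Myh8*.

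Shares show the composition of the family within each library and do not depend on the scaling between libraries. The share is the count of a member as a percent of the summed counts of all 6. Between 46034 and 269764 counts stand behind the shares of a library, so the Wilson 95% interval of a single share is narrow, 62.4 to 63.2% for *Myh1* in db/db replicate 2, and covers counting error only. In db/+ discs *Myh1* made up 63.1, 73.9 and 77.7% of the family, and in db/db discs 55.7, 62.8 and 61.0%. The db/db libraries all lay below the db/+ libraries, with db/+ replicate 1 only just above the highest of them.

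Beside the lower share of *Myh1*, the slow and developmental forms and *Myh2* had higher mean shares in db/db. *Myh7* held 5.22, 5.28 and 5.04% in db/+ and 9.97, 9.50 and 9.55% in db/db. *Myh3* held 1.02, 0.555 and 0.735% in db/+ and 2.53, 2.12 and 2.50% in db/db. *Myh8* held 1.17, 0.805 and 0.865% in db/+ and 1.77, 1.19 and 1.33% in db/db. The shares of *Myh7*, *Myh3* and *Myh8* had no overlap between the groups.

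By the two-sided exact permutation test the means of 71.6 and 59.9% for *Myh1*, 5.18 and 9.67% for *Myh7*, 0.771 and 2.38% for *Myh3* and 0.947 and 1.43% for *Myh8* each gave p = 0.10, the smallest that 3 mice against 3 allow. The design therefore could not give a p under 0.05 for a share in db/db. *Myh2* held 20.2 ± 7.75% (SD, n = 3) in db/+ and 25.7 ± 3.09% in db/db (exact p = 0.30), where db/+ replicate 1 at 29.0% lay in the db/db range. The difference of 5.44 points was 9.82 without db/+ replicate 1, with no overlap, and 2.49 without db/+ replicate 3. *Myh4* held 1.29 ± 0.82 and 0.984 ± 0.146% (exact p = 0.70). These p-values are unadjusted, 12 shares were compared over both models, and shares of 1 library sum to 100 and so are not independent. When counts were divided by exonic length, the *Myh1* groups overlapped (exact p = 0.20).

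**Figure D3:**
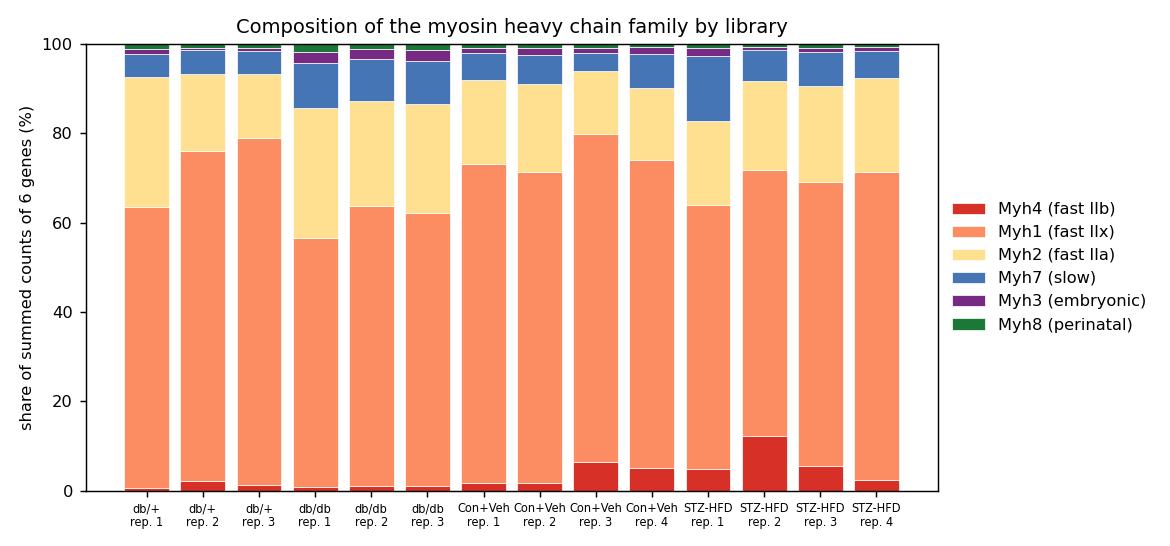
Stacked bars of the share of each member in the summed counts of the 6 genes (y axis, percent) for each of the 14 libraries. *Myh1* is the largest part in every library, from 55.7 to 77.7%. The slow *Myh7* part is 9.50 to 9.97% in the db/db bars and 5.04 to 5.28% in the db/+ bars.

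In STZ-HFD every share overlapped with Con+Veh. *Myh1* held 71.5, 69.6, 73.5 and 69.0% in Con+Veh and 59.01, 59.7, 63.6 and 69.1% in STZ-HFD, with STZ-HFD replicate 4 inside the Con+Veh range. Its means of 70.9 and 62.8% differed by -8.07 points (exact p = 0.0571). *Myh2* held 17.1 ± 2.53% (SD, n = 4) in Con+Veh and 20.3 ± 1.15% in STZ-HFD, also with exact p = 0.0571, and the smallest p this design allows is 0.0286.

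*Myh7* held 6.03, 6.66, 4.09 and 7.54% in Con+Veh and 14.4, 6.97, 7.62 and 5.89% in STZ-HFD (exact p = 0.257). Replicate 1, the library with the lowest family sum of that group, set its high mean, and without it the difference of 2.63 points was 0.74. *Myh4* held 1.60, 1.80, 6.36 and 5.01% in Con+Veh and 4.86, 12.2, 5.54 and 2.35% in STZ-HFD (exact p = 0.429), and without STZ-HFD replicate 2 its difference of 2.55 points was 0.56. *Myh3* held 1.37 ± 0.22% and 1.07 ± 0.53% (exact p = 0.286), a difference of -0.31 points. Without STZ-HFD replicate 1 this difference was -0.57 with no overlap (exact p = 0.0571, the smallest that 3 mice against 4 allow). Without STZ-HFD replicate 2 it was -0.17. *Myh8* held 0.809 ± 0.064% and 0.800 ± 0.115% (exact p = 0.914). The exact test gave 0 of 6 shares a p under 0.05 in STZ-HFD.

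**Figure D4:**
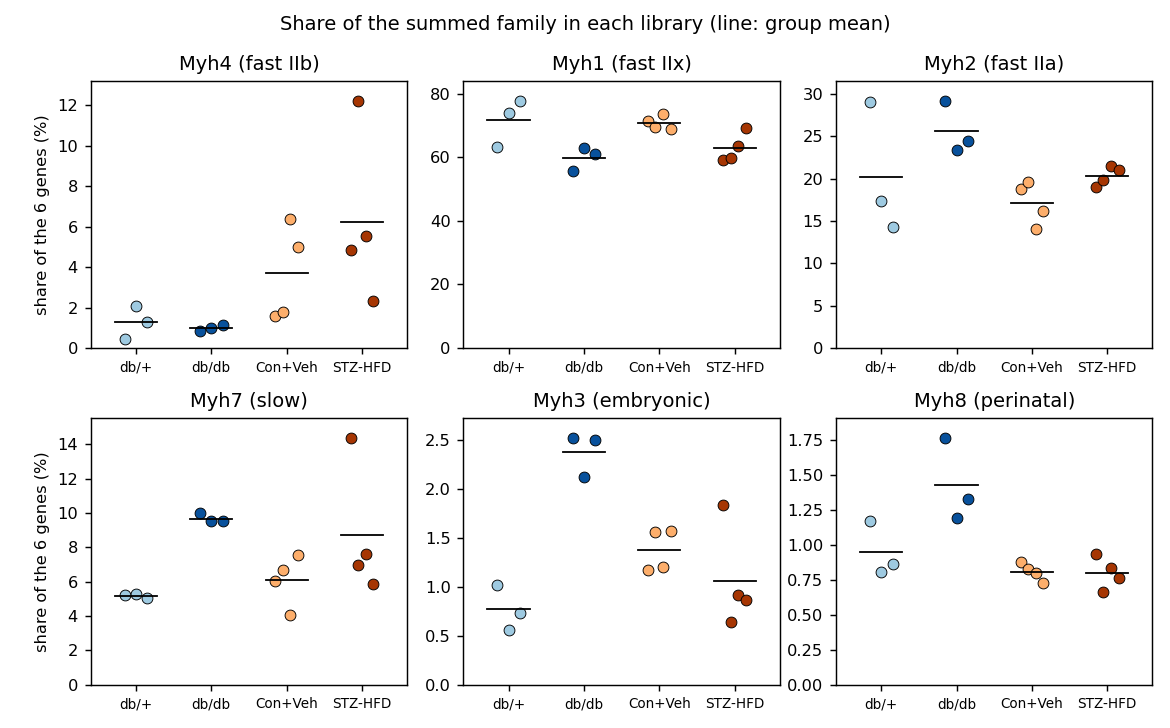
Share of each member in the summed counts of the 6 genes (y axis, percent, from 0, range differing between panels) in each library, with lines for group means. *Myh1* sits lower and *Myh7*, *Myh3* and *Myh8* sit higher in db/db than in db/+ without overlap, whereas each STZ-HFD panel shows overlap with Con+Veh.

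The ratio of slow to IIx heavy chain did not overlap between db/+ and db/db. There were 8.28, 7.15 and 6.48 *Myh7* counts per 100 *Myh1* counts in db/+ and 17.9, 15.1 and 15.6 in db/db. Con+Veh libraries had 8.43, 9.58, 5.56 and 10.9, and STZ-HFD libraries 24.4, 11.7, 12.0 and 8.52. The adult fast forms *Myh1*, *Myh2* and *Myh4* together held 92.6 to 93.4% of the family in db/+, 85.7 to 87.2% in db/db, 90.2 to 93.9% in Con+Veh and 82.8 to 92.5% in STZ-HFD.

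Genes that accompany the heavy chains in fast or slow fibers were read from lists. Of 15 genes for proteins typical of fast fibers, 0 were called in db/db by limma, edgeR's quasi-likelihood test or DESeq2. At an unadjusted p under 0.05, 9 of the 15 were lower by limma, 3 by edgeR and 5 by DESeq2. Their median log2 fold change was -0.75, where that of all genes tested was -0.04, and 14 of 15 were negative. Of 14 slow fiber genes, 0 were called by limma or edgeR and 1 (*Mb*) was lower by DESeq2, with 2 higher and 2 lower at an unadjusted p under 0.05 in limma. Their median was 0.06, with 7 positive and 7 negative. The most abundant fast genes, *Tnnt3* (fast troponin T), *Atp2a1* (the fast calcium pump) and *Tnni2* (fast troponin I), had -0.74, -0.96 and -0.57. The most abundant slow genes, *Fhl1*, *Mybpc1* (slow myosin binding protein C) and *Mb* (myoglobin, the oxygen store of oxidative fibers), had 0.15, -0.51 and -1.59, the last being the lowest value of either list.

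By summed CPM the slow genes made up 28.65 to 35.03% of the slow and fast genes together in db/+ and 35.7 to 48.0% in db/db. In Con+Veh this was 20.73 to 35.01% and in STZ-HFD 19.4 to 30.1%. The db ranges were apart, since db/db began at 35.7%, and the STZ-HFD ranges overlapped. The slow genes had mean sums of 1919 CPM in db/+ and 1839 in db/db, and the fast genes 4108 and 2569. *Fhl1*, *Tpm3* and *Atp2a2* led the slow sum in db/db, with means of 616, 312 and 240 CPM against 561, 189 and 202 in db/+. *Mybpc1* and *Mb* went the other way, at 172 and 79.4 CPM in db/db against 235 and 277 in db/+. Whether this RNA came from muscle fibers was not tested.

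In STZ-HFD both lists had positive medians. Among fast genes 4 of 15 rose, *Pvalb* (parvalbumin, a calcium buffer of fast fibers) by 1.59, *Pfkm* and *Pygm* (muscle phosphofructokinase and glycogen phosphorylase) by 1.55 and 1.17 and *Tnni2* by 1.10, with a median of 1.01 and 15 positive. Among slow genes 5 of 14 rose, *Myl3* (slow light chain) by 2.04, *Tnnt1* (slow troponin T) by 1.42, *Mybpc1* by 1.37, *Casq2* by 1.28 and *Atp2a2* (the slow calcium pump) by 1.28, with a median of 1.17 and 14 positive. The median of all genes tested was -0.04. The difference between the models was called for 5 fast genes (*Mybpc2*, *Pfkm*, *Casq1*, *Pvalb* and *Pygm*, by 1.93 to 2.69) and 3 slow genes (*Mb*, *Tnnt1* and *Mybpc1*, by 1.87 to 2.83), where edgeR called 0 of either, with 12 fast and 5 slow genes higher at an unadjusted p under 0.05, and DESeq2 called 6 and 2. In STZ-HFD, 0 fast and 0 slow genes were called by edgeR, with 9 and 8 higher at an unadjusted p under 0.05, and DESeq2 called 3 fast (*Pfkm*, *Pvalb*, *Tnni2*) and 3 slow genes (*Casq2*, *Myl3*, *Tnnt1*).

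**Figure D5:**
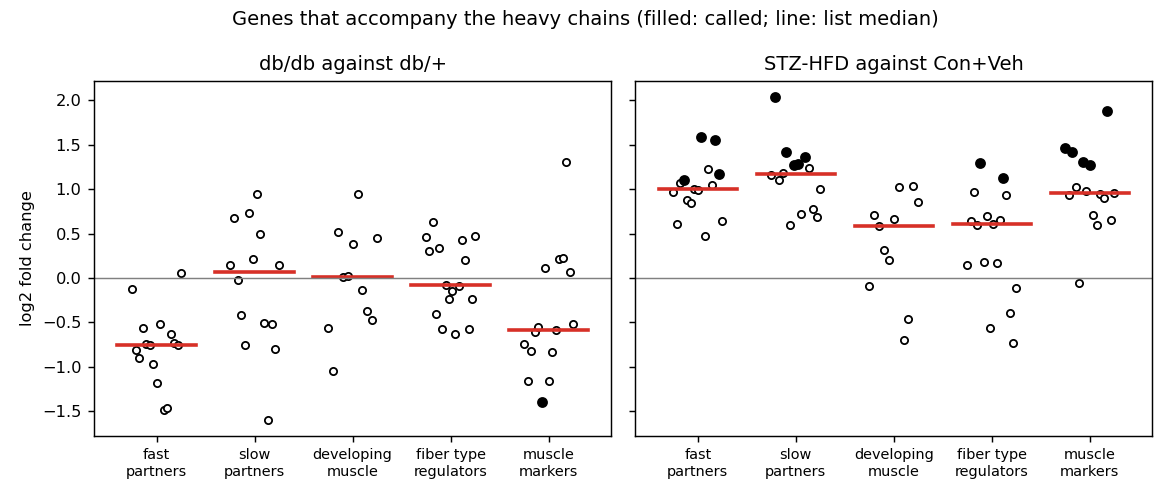
Log2 fold changes (y axis) of single genes in 5 lists for both models. Filled points are called by limma, and red lines are list medians. In db/db the fast fiber list has its median at -0.75 and the slow fiber list at 0.06, and in STZ-HFD the medians are 1.01 and 1.17.

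Of *Myh6*, *Myh7b*, *Myh13* and *Myh15*, 3 were tested, and the 4 summed to between 4.33 and 44.5 CPM in each library. *Myh7b*, a slow-type relative, rose by 1.74 and *Myh13*, the extraocular form, by 1.28 in STZ-HFD by limma, and both differences between the models were called (2.92 and 2.79). edgeR's quasi-likelihood test and DESeq2 called 0 of the 3 in STZ-HFD, with 2 and 3 higher at an unadjusted p under 0.05, and for the differences edgeR called 0, with 3 higher at an unadjusted p under 0.05, and DESeq2 called *Myh7b* and *Myh13*. *Myh6* had 1.496 in STZ-HFD (limma adjusted p = 0.0675), and in db/db *Myh7b* and *Myh13* had -1.18 and -1.51, not called. The 4 non-sarcomeric class II heavy chains, among them the abundant *Myh9* of non-muscle cells and *Myh11* of smooth muscle, had 0 calls in limma and edgeR in both models (median log2 fold changes -0.35 and 0.30), with 1 lower in db/db and 1 higher in STZ-HFD at an unadjusted p under 0.05 in limma, and DESeq2 also had 0. For the difference between the models limma and edgeR called 0 of the 4, each with 1 higher at an unadjusted p under 0.05. DESeq2 called *Myh14* there, which had a log2 difference of 1.45 by limma (adjusted p = 0.0994).

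Of 16 genes of developing or regenerating muscle 11 were tested and limma, edgeR and DESeq2 called 0 in either model, with 1 lower in db/db, and 3 higher and 1 lower in STZ-HFD, at an unadjusted p under 0.05 in limma. The summed level was 158 to 202 CPM in db/+, 151 to 175 in db/db, 173 to 238 in Con+Veh and 135 to 163 in STZ-HFD. A large part of this sum was *Ncam1*, with means of 131, 118, 122 and 73.5 CPM in these groups, where the list had 177, 161, 197 and 151. In STZ-HFD 8 of the 11 tested genes were positive and 3 negative. Medians were 0.01 and 0.59, and the most abundant, *Ncam1*, had -0.14 and -0.70 on the log2 scale. Its adjusted p of 0.0416 by limma in STZ-HFD was under 0.05, and its change was short of the fold minimum. Of 16 regulators of fiber type 0 were called in db/db by the 3 tools, with 2 lower at an unadjusted p under 0.05 in limma, and 2 rose in STZ-HFD, *Prox1* by 1.297 and *Vgll2* by 1.13, which are both known for roles in slow fiber genes, with medians of -0.08 and 0.60, while edgeR and DESeq2 called 0 there.

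Across the 14 libraries the genes most like each member were sought by Pearson correlation of log2 CPM, given as a description since the libraries share their groups and scaling. *Myh7* was closest to *Asb16* (r = 0.98), *Tnnt1* (0.97) and *Myh6* (0.96). *Myh1* was closest to *Adprhl1* (0.97), *Dnajb5* (0.97) and *Casq1* (0.96), *Myh4* to *Fhl3* (0.96), *Mybpc2* (0.95) and *Chchd10* (0.94), and *Myh3* to *Nexn* (0.95), *Cycs* (0.95) and *Trdn* (0.95). *Myh2* and *Myh8* had *Flnc* (0.96 and 0.95) and *Smtnl1* (0.95 and 0.95) in common, followed by *Dnajb5* (0.95) for *Myh2* and *Map2k3* (0.95) for *Myh8*. Among the members *Myh2* and *Myh8* were most alike (0.99) and *Myh4* and *Myh3* least (0.69).

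Sequence shared between the members limits how finely their counts can be divided. Of the 100-base windows of the longest coding transcript, 9.73% in *Myh1*, 9.17% in *Myh2*, 6.61% in *Myh8* and 3.85% in *Myh4* also occur in another sarcomeric heavy chain, and 11.2% of those in *Myh7* occur in *Myh6*. For *Myh3* this was 1.15%. The gene closest to *Myh8* was *Myh2*, which holds 3.37% of the 100-base windows of *Myh8* and had far higher counts in every library. Whether part of the *Myh8* counts came from *Myh2* RNA was not tested. Genes on the opposite strand overlap *Myh1* (*Myhas*, 22 to 226 counts per library) and *Myh2* (*9430073C21Rik*, 112 to 983 counts), and *Mhrt* and other genes overlap *Myh7*. Read length, the use of strand and the handling of reads that match several genes are not given in the sources used here.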

How the data were processed

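RNA-seq libraries, 1 per mouse, came from caudal discs of 14 mice. Per the labels and the methods of the study, the authors aligned reads with STAR to Ensembl release 101 (GRCm38), counted genes with featureCounts and estimated transcript counts with Salmon. The deposited gene table holds whole-number counts, not normalized. Its 55774 lines include 287 repeats, which were used once. The deposited table of expected counts per transcript holds only 19 of the 24 transcripts of the members in the rows analysed here, and was not used for the members.

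Depth was 16076908 to 58943169 counts per library, so 3 counts correspond to 0.0509 to 0.187 CPM before TMM scaling, for counting error only. Ribosomal RNA genes took 28.1 to 60.2% of the counts.

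Genes with CPM above 1 in at least 3 libraries were tested with voomWithQualityWeights in limma 3.58.1 (R 4.3.3, edgeR 4.0.16 for TMM), which the study's methods name, with 1 mean per group, 3 contrasts and Benjamini-Hochberg adjustment over all 16915 genes. Shares were compared by two-sided exact permutation tests (scipy 1.17.1). Positions, lengths and types came from GENCODE M21, where 55141 of the genes were found, and upstream sequences from RefSeq. Shared promoter blocks and the MEF2 pattern were searched on both strands. The fits were tested on simulated data.

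The members and gene lists were chosen with earlier results of these data known. Named genes are the members, called genes of a list (at most 5 by largest change, otherwise the most abundant 2 or 3) and the 3 genes most correlated with each member. *Nppa*, *Nppb* and the antisense genes were named after their values were seen. Settings tried beside this were DESeq2 1.42.0 and the quasi-likelihood test of edgeR, voom without weights, RLE factors, other filters, no fold minimum, ribosomal genes removed, a replicate block, a muscle score covariate, each model alone and each library left out. Lengths of coding transcripts were added after the data were seen. Groups came from the labels, and library numbers did not pair mice by the check given in the closing section.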

Additional observations from a re-analysis of the deposited data

Results flagged for a closer look

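The level of *Myh3* in Con+Veh replicate 3, 32.8 CPM, stood apart from the other 3 Con+Veh libraries, which lay at 50.1 to 53.3 CPM. It was 1 such library in 24 group tests of member levels and shares, where chance alone gives about 1 in 20. The same library had the highest weight in the fit.

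The STZ-HFD and db/db effects differed by test for 4 members, with differences in log2 fold change of 2.77 for *Myh1*, 2.74 for *Myh2*, 2.23 for *Myh7* and 2.07 for *Myh8*. With the muscle marker score as a covariate none of these 4 differences was called by limma. Cohort and model cannot be told apart in these differences.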

How the results depend on the processing

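In db/db, 1 member was called (*Myh1*), and 0 with edgeR's quasi-likelihood test or voom without quality weights, each with 2 members at an unadjusted p under 0.05. In STZ-HFD, 4 were called, 0 with those tests or the muscle score, 1 with DESeq2, 2 with filterByExpr or with no filter, and 1 without Con+Veh replicate 2 and STZ-HFD replicate 4 together, the libraries with the most ribosomal RNA. Of the 4 differences between the models, 0 were called with edgeR's quasi-likelihood test, voom without weights or the muscle score, and 2 with no filter or without both of those libraries. Leaving out 1 library gave 0 to 1 calls in db/db, 0 to 4 in STZ-HFD and 0 to 4 differences. Of the 12 shares, 0 had an exact p under 0.05 in the main test and in all alternatives run. Group size alone settled this for db/db, where no setting could reach 0.05. It also settled it for STZ-HFD wherever a Con+Veh or STZ-HFD library was dropped, since p could not then fall below 0.0571. Those settings cannot show whether the share results are stable. Only STZ-HFD tests that kept all libraries of both groups, without the replicate block, could have passed. The cause of the changes in calls was not tested.

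With a replicate block, 2 members were called in db/db (*Myh1* and *Myh2*), 3 in STZ-HFD and 4 for the difference, but same-numbered libraries did not deviate together (r of -0.28 to 0.19 for the db groups and -0.26 to -0.04 for STZ-HFD and Con+Veh). With 3 and 4 pairs the sign-flip test of the shares cannot reach 0.05.

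The sign of *Myh3* reversed with the muscle score in STZ-HFD (-0.083) and for the difference (-0.76). Without db/+ replicate 3 or db/db replicate 1 it was -0.016 and -0.023 in db/db, and without db/+ replicate 1 the difference was -0.045, where leaving out 1 library gave up to 0.75 and 0.72. The *Myh8* share in STZ-HFD, a difference of -0.0088 points, was 0.011 without both libraries, 0.015 without Con+Veh replicate 1, 0.036 without STZ-HFD replicate 2 and 0.0040 without STZ-HFD replicate 4 (the lowest without 1 library being -0.054), and the *Myh4* share in db/db was 0.10 points without db/+ replicate 2 and at the lowest -0.71. Over all settings the log2 fold changes of single members kept direction and call in 362 cases, lost the call in 91, gained it in 4 and reversed in 5. The 362 include members that were not called in the main fit and stayed so, and only members called there could lose a call. The order by length of the coding transcript, added after the data were seen, equalled that by exonic length in 1 of 4 groups, and the 2 lengths of *Myh8* are 6149 and 11772 bases. Transcript totals were not run for the members. Groups of 3 and 4 mice limit the share tests more than depth does.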
